A study of Bos taurus with 9 samples.

Results

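The fast and slow isoforms of the myosin and troponin subunits were followed across longissimus dorsi muscle, the skeletal muscle along the back, and 2 fat depots of Yan yellow cattle. The members were 10 genes fixed by symbol, and every probe set annotated with exactly 1 of these symbols was kept and is shown by itself. This gave 21 probe sets of the 24016 that were not controls. The 5 genes of fast fibres, MYH1, MYL1, MYL11 (also written MYLPF), TNNT3 and TNNC2, had 13 probe sets, and the 5 genes of slow fibres, MYH7, MYL2, MYL3, TNNT1 and TNNC1, had 8. MYH1 alone had 8 probe sets, MYH7 had 3, MYL11 and TNNC1 had 2 each, and the other members had 1. RNA from this muscle and from abdominal and subcutaneous fat of bulls aged 24 months was hybridised to 1-colour Affymetrix arrays, with 3 arrays per tissue. All samples were of 1 breed, and the labels name no treatment. The design text counts 9 bulls, and the labels tie no sample to one of them. The tests therefore rest on the scatter among these arrays, whose small number limits the precision.

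Skeletal muscle contracts when myosin heads of the thick filament pull on actin of the thin filament. A myosin heavy chain (MYH genes) carries the motor, and each heavy chain binds an essential and a regulatory light chain (MYL genes). The thin filament is switched by troponin, in which troponin C binds calcium, troponin T anchors the complex on tropomyosin, and troponin I blocks actin until calcium arrives. Slow oxidative fibres and fast glycolytic fibres build these parts from different genes, and the slow genes are largely shared with the heart. Adipocytes have no sarcomeres. The source of any signal of these genes in fat was not tested.

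Levels are given as log2 intensities, in which a difference of 1 is a doubling. The median of an array lay between 5.75 and 5.92 and was on average 0.12 higher in fat than in muscle. A level under the array median is read here as near background, and a fold change against it is inexact. Markers of muscle fibres outside the members (8 of 10 measured) had a summed intensity of 63675 to 67601 in muscle, 1922 to 3948 in abdominal and 1989 to 2744 in subcutaneous fat. TTN and RYR1 were the 2 without a probe set. Adipocyte markers (8 of 10 measured) summed to 7177 to 10488 in muscle, 42818 to 44085 in abdominal and 37383 to 39426 in subcutaneous fat. Both sums thus went with the labelled tissues, though not every gene did. GPD1 hardly differed, with means of 11.80 in muscle and 12.11 and 11.90 in the depots. With FABP4 (11.91) it was the brightest of the list in muscle, so the muscle sum rests mainly on these. Of the fibre markers, CKM by Bt.3651.2.A1_at was brighter in fat, at 8.58 in muscle against 10.32 and 9.76. A second CKM probe set, Bt.3651.1.S1_at, went the other way, at 13.23 to 13.29 in muscle and 4.71 to 6.24 in fat. For the GAPDH controls the 3'/5' ratio, a measure of RNA integrity, lay at 0.937 to 1.01 for muscle and at 1.21 to 1.74 for fat. The actin controls were wider apart, at 0.963 to 1.04 for muscle and 2.24 to 8.17 for fat. Both ratios moved with the comparison of fat with muscle, and their part in the results was not tested. Abdominal replicates 2 and 3 stood apart from the other adipose arrays for slow members, and results that rest on them are given with and without them.

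Muscle was first compared with fat, for which the depots were averaged with equal weight. The members were lower in fat in nearly every probe set that was bright in muscle. Of 21 probe sets, 15 passed an adjusted p of 0.05 in limma as lower in fat, 1 as higher and 5 did not pass, with a median difference of -6.37. Over all 24016 probe sets 26.4% passed as lower and 26.2% as higher, with a median of -0.06. By type, 9 of 13 fast and 6 of 8 slow probe sets were lower. Because the tissues are mixtures of cells, fewer cells of a type and less RNA per cell cannot be told apart. The probe sets fell into 3 kinds by level. In 13 of them, at least 1 for each of the 10 genes, every muscle array lay at least 4.02 above every adipose array. Over all probe sets 0.550% were that far apart, at a distance that the members themselves set. Counting any separation with muscle higher, 14 of 21 members did not overlap, beside 22.9% of all probe sets. In 6 the level was under the array median on all 9 arrays, and 2 were bright in all tissues. These kinds were set after the values were seen and are a description. The 13 differed by -8.31 to -5.54 in fast and -7.16 to -5.72 in slow members, with medians of -7.74 and -6.80. Each of the 13 kept its call under each of the 20 alternatives run for it.

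**Figure D1:**
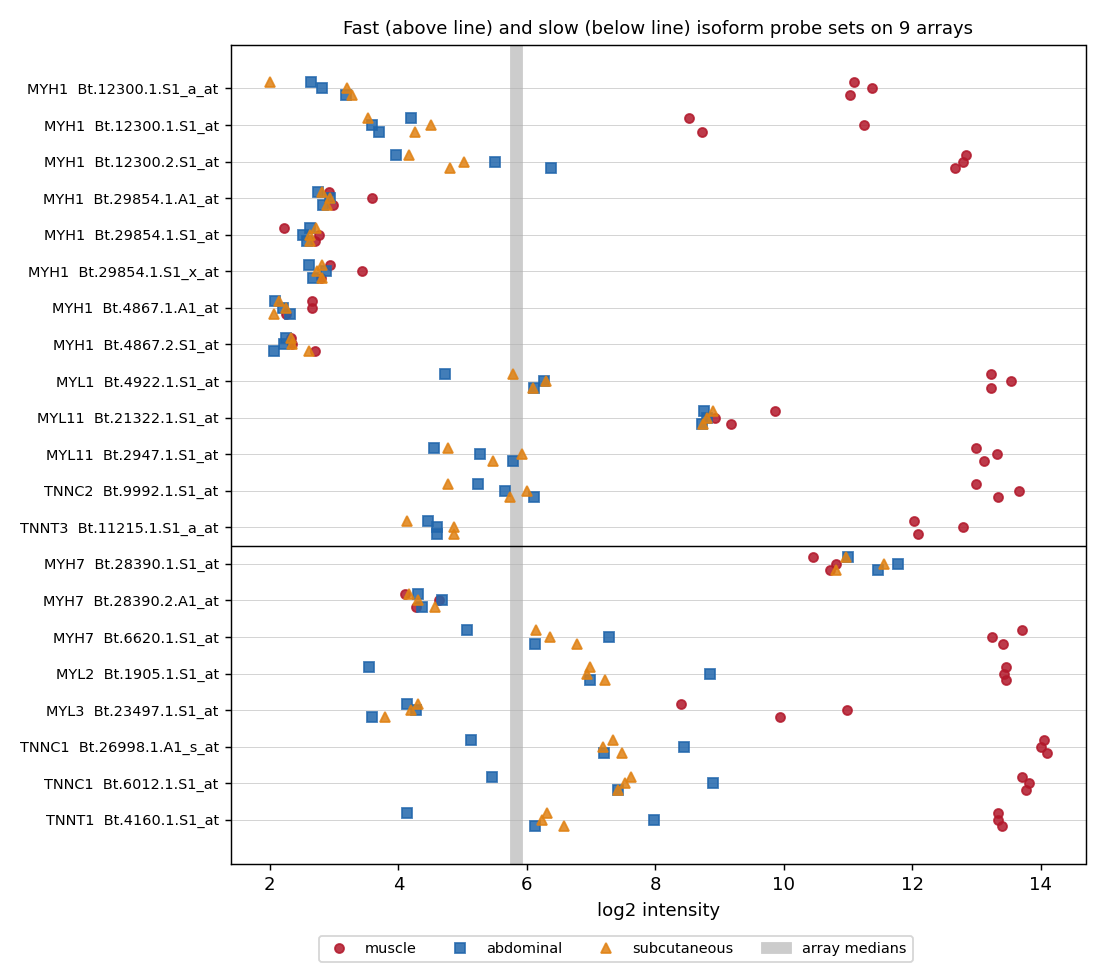
Log2 intensity (horizontal axis) of the 21 member probe sets (rows) on 9 arrays, with 1 point per array coloured by tissue and the band of array medians in grey; fast members stand above the line and slow members below. Muscle points sit at least 4.02 to the right of all adipose points in 13 rows, and 5 MYH1 rows and 1 MYH7 row lie left of the grey band on all arrays.

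The myosin heavy chains set the speed of the motor. MYH1 encodes the fast heavy chain 2x. Its probe set Bt.12300.2.S1_at read 12.67, 12.79 and 12.83 in muscle replicates 1, 2 and 3, in which order the arrays are always given. It read 6.37, 5.51 and 3.97 in abdominal and 4.81, 5.02 and 4.17 in subcutaneous fat. Muscle was high on all 3 arrays, and of the fat samples only abdominal replicate 1 exceeded the array median. The difference was -7.79 ± 0.43 (SE, 3 arrays per tissue; limma adjusted p = 5.46e-07). A second probe set, Bt.12300.1.S1_a_at, read 11.03, 11.37 and 11.09 in muscle against 2.01 to 3.29 in fat and differed by -8.31 ± 0.27 (adjusted p = 1.75e-08), which is 316-fold. This size is inexact, since the fat values are near background, and it was -5.88 with 32 added to each intensity. The third, Bt.12300.1.S1_at, differed by -5.54 ± 0.53 (adjusted p = 1.74e-05), and its muscle values were 8.72, 11.25 and 8.53. It therefore split the muscle samples, with replicate 2 far above the others, which the first 2 probe sets did not do. Without muscle replicate 2 its difference was -4.66.

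MYH7 encodes the slow heavy chain of type 1 fibres and of the heart ventricle. Probe set Bt.6620.1.S1_at read 13.42, 13.23 and 13.70 in muscle, 6.13, 7.27 and 5.07 in abdominal fat and 6.78, 6.37 and 6.14 in subcutaneous fat. The muscle and adipose arrays were far apart, and of the fat samples abdominal replicate 3 alone lay under its array median. The difference was -7.16 ± 0.38 (adjusted p = 4.95e-07), or 143-fold. Heavy chain genes are close copies of each other and lie in clusters: in the RefSeq gene order of the cattle assembly ARS-UCD2.0, MYH2 stands next to MYH1 and MYH6 next to MYH7. How far these probe sets also read the neighbouring copies was not tested.

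The essential light chains stabilise the lever arm of myosin. MYL1, the essential light chain of fast fibres, read 13.22, 13.54 and 13.23 in muscle, 6.11, 6.27 and 4.72 in abdominal fat and 6.10, 6.29 and 5.78 in subcutaneous fat. It was 175-fold lower in fat, a difference of -7.45 ± 0.30 (adjusted p = 8.00e-08), and 4 of 6 adipose arrays lay just above their median. MYL3, the essential light chain of slow fibres and the ventricle, was spread widely in muscle, at 9.94, 10.98 and 8.39. Its adipose arrays read 3.59 to 4.30 and were all under the median. The difference was -5.72 ± 0.45 (adjusted p = 4.99e-06), and it ran from -6.41 without muscle replicate 3 to -5.12 without muscle replicate 2.

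The regulatory light chains carry the phosphorylation site by which myosin light chain kinase tunes contraction. MYL11 is the fast form, and its probe set Bt.2947.1.S1_at read 13.12, 13.32 and 12.99 in muscle, 5.79, 5.27 and 4.56 in abdominal fat and 5.48, 5.92 and 4.77 in subcutaneous fat. No adipose array exceeded its median, and the difference was -7.84 ± 0.29 (adjusted p = 4.34e-08). MYL2 is the slow and ventricular form. It was nearly constant in muscle, at 13.46, 13.42 and 13.46, and in subcutaneous fat, at 7.21, 6.94 and 6.98. The abdominal arrays read 6.99, 8.85 and 3.55, so that replicate 2 was the highest and replicate 3 the lowest of all adipose arrays. The difference from muscle was -6.69 ± 0.87 (adjusted p = 0.000125), with the largest SE among the 21 probe sets. It was -7.29 without abdominal replicate 2, -5.97 without abdominal replicate 3 and -6.43 without both, a fit that leaves 1 abdominal array.

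Troponin C is the calcium sensor. TNNC2, the fast form, read 13.33, 13.67 and 12.99 in muscle, 6.11, 5.67 and 5.24 in abdominal fat and 5.74, 6.00 and 4.78 in subcutaneous fat, and differed by -7.74 ± 0.29 (adjusted p = 4.34e-08). TNNC1, the slow and cardiac form, had 2 probe sets that followed each other. Bt.26998.1.A1_s_at read 14.09, 14.00 and 14.04 in muscle, where it was the highest value of each array and so lay at the top of the scale. It read 7.20, 8.45 and 5.14 in abdominal fat and 7.48, 7.19 and 7.34 in subcutaneous fat. Its difference was -6.91 ± 0.54 (adjusted p = 5.00e-06), and that of Bt.6012.1.S1_at was -6.37 ± 0.56 (adjusted p = 9.98e-06). With muscle at the top of the scale, these sizes are not exact. Without abdominal replicates 2 and 3 they were -6.78 and -6.29.

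Troponin T ties the complex to tropomyosin. TNNT3, the fast form, read 12.09, 12.79 and 12.03 in muscle and between 4.13 and 4.86 on the adipose arrays, all under the median. The difference of -7.72 ± 0.21 (adjusted p = 7.34e-09) had the smallest adjusted p among the members. TNNT1, the slow form, read 13.39, 13.33 and 13.33 in muscle, 6.13, 7.99 and 4.13 in abdominal fat and 6.58, 6.24 and 6.32 in subcutaneous fat, and differed by -7.12 ± 0.63 (adjusted p = 1.003e-05), or by -7.10 without abdominal replicates 2 and 3. The slow form differed between abdominal arrays by 3.86, whereas the fast form lay near background in fat, where a spread cannot be compared with it.

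Several probe sets went against others of the same gene. MYH7 by Bt.28390.1.S1_at was bright in all tissues and higher in fat: it read 10.73, 10.81 and 10.45 in muscle, 11.46, 11.78 and 10.999 in abdominal fat and 10.81, 11.55 and 10.96 in subcutaneous fat. Muscle and abdominal arrays did not overlap, whereas muscle replicate 2 and subcutaneous replicate 1 were alike. The difference of 0.60 ± 0.21 passed (adjusted p = 0.0343), but the call did not hold when muscle replicate 1 (adjusted p = 0.0735), 2 (0.05195) or 3 (0.117) was left out, without abdominal replicate 1 (0.0613) or 2 (0.0626), without subcutaneous replicate 2 (0.05375), without abdominal replicates 2 and 3 together (0.0528) and after each array was centred (0.0693). The other bright one was MYL11 by Bt.21322.1.S1_at, at 9.18, 8.93 and 9.86 in muscle and 8.73 to 8.90 in fat. It was lower in fat by a small amount (-0.53 ± 0.18, adjusted p = 0.0313), and the lowest muscle array stood 0.03 above the highest adipose array. It no longer passed when muscle replicate 3 was left out (-0.26, adjusted p = 0.0747), nor without abdominal replicate 1 (0.057) or 3 (0.0546), without subcutaneous replicate 1 (0.059) or 2 (0.05285), nor without abdominal replicates 2 and 3 together (0.0992). For both genes another probe set differed by more than 7.

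The 6 dim probe sets were 5 of MYH1 and 1 of MYH7. The MYH1 probe sets read 2.23 to 3.59 on muscle arrays and 2.07 to 2.94 on adipose arrays, with differences of -0.34 to 0.05. One of them, Bt.4867.1.A1_at, passed as lower in fat (-0.34 ± 0.12, adjusted p = 0.0399) and lost its call under 12 of its 18 alternatives. These included leaving out muscle replicate 2 (adjusted p = 0.139) or 3 (0.113), abdominal replicate 2 (0.0665), 3 (0.0798) or both (0.188), or subcutaneous replicate 1 (0.0762) or 3 (0.0672). Bt.29854.1.S1_x_at did not pass (-0.31, adjusted p = 0.106) but did without muscle replicate 1 (0.0471). Bt.29854.1.A1_at likewise passed only without muscle replicate 3 (0.048) or, as did Bt.29854.1.S1_x_at, with centred arrays. MYH7 by Bt.28390.2.A1_at read 4.10 to 4.64 on muscle arrays and 4.17 to 4.68 on adipose arrays (0.06 ± 0.15, adjusted p = 0.785). From values under the median on every array no level of MYH1 or MYH7 can be read, and these probe sets bear on neither gene.

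Each depot was also set against muscle by itself. In abdominal fat 13 of 21 member probe sets were lower and 1 higher, beside 23.1% lower over all probe sets. In subcutaneous fat 13 of 21 were lower and 0 higher, beside 22.4% over all. The 13 were the probe sets high in muscle in each case, and the 1 higher was MYH7 by Bt.28390.1.S1_at (0.75 ± 0.24, adjusted p = 0.027). Both comparisons share the muscle arrays. TNNT3 differed by -7.75 in abdominal and -7.68 in subcutaneous fat, and TNNT1 by -7.27 and -6.97. MYL2 differed by -6.98 and -6.40, and MYL3 by -5.77 and -5.67. For each of these the values of the depots lay within 1 SE of each other.

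**Figure D2:**
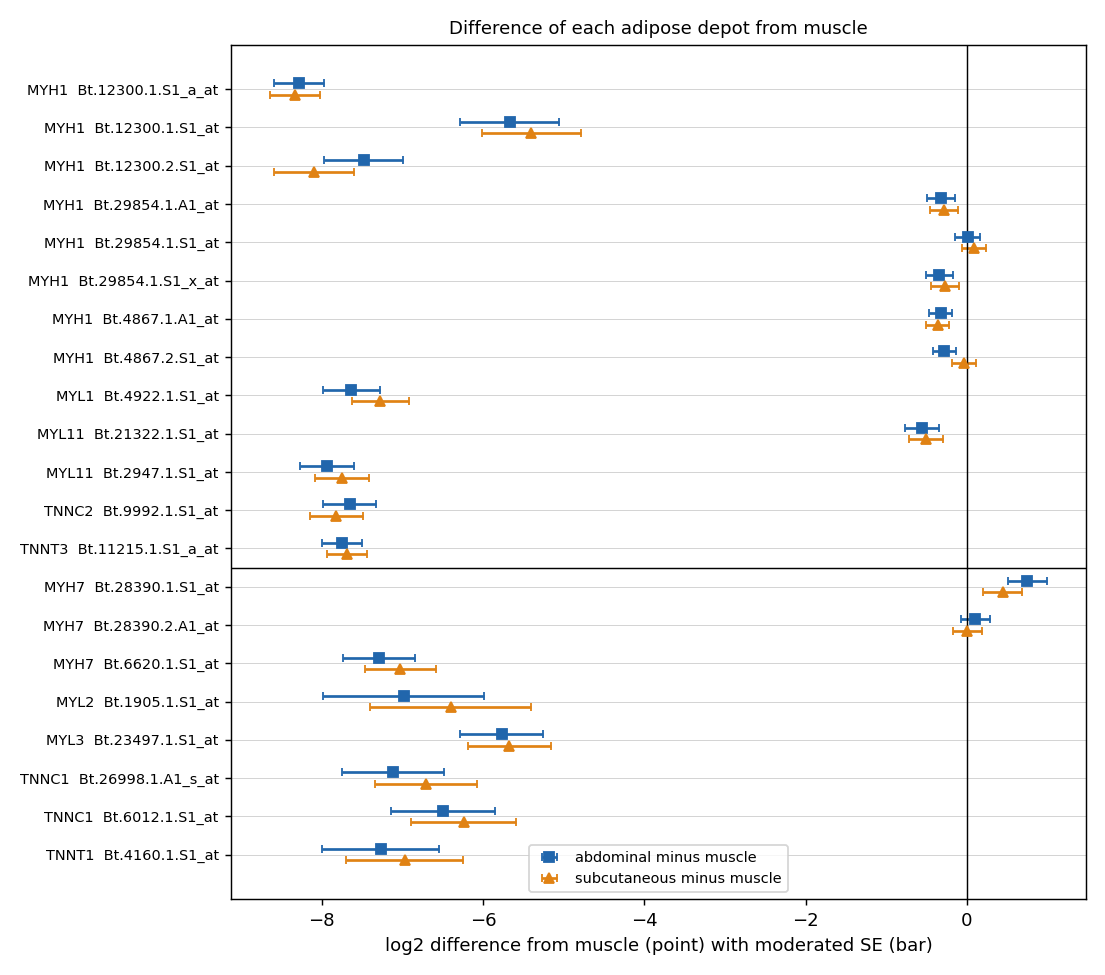
Log2 difference of abdominal and of subcutaneous adipose tissue from muscle for each member probe set, as points with the moderated SE as bars; fast members stand above the line and slow members below. The depots lie within 0.62 of each other in every row, and MYL2 has the widest bars (SE 1.001).

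The spread over the adipose arrays was described for each type, with the limit that the fast probe sets other than MYL1 lay under the array median on most of these arrays, where spreads cannot be compared. Of the 6 slow probe sets high in muscle, 5 had abdominal replicate 2 as the highest and replicate 3 as the lowest of all 6 adipose arrays. Of the 7 fast ones none had this order, and it was found in 3.6% of all probe sets. The order was chosen after the values were seen, and 2 of the 5 probe sets are of TNNC1, so these counts are a description. The range over the abdominal arrays was 0.69 to 5.30 in the slow and 0.13 to 2.41 in the fast probe sets, with medians of 3.37 and 0.87 beside 0.28 over all probe sets. The exception among the slow members was MYL3, which lay near background in fat. Over the subcutaneous arrays the order was the other way: the slow probe sets had ranges of 0.21 to 0.64 and the fast ones 0.51 to 1.28. All 7 fast probe sets had subcutaneous replicate 3 as the lowest of its depot, as had 1 of 6 slow and 32.7% of all probe sets. The difference between the types was not tested, since the arrays are few and the probe sets of 1 array are not replicates.

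**Figure D3:**
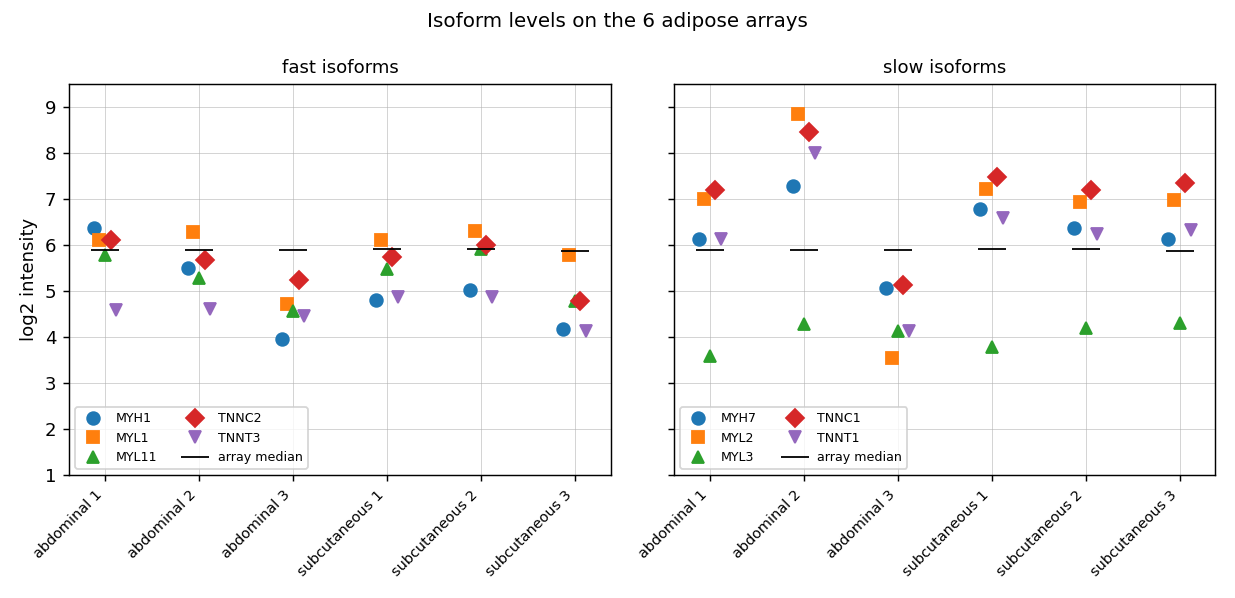
Log2 intensity of the fast (left) and slow (right) isoforms on each of the 6 adipose arrays, for the probe set of each gene that is brightest in muscle, with array medians as black bars. MYL2, TNNC1, TNNT1 and MYH7 peak on abdominal replicate 2 and are lowest on abdominal replicate 3, where MYL2 reads 3.55 against 8.85.

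Set against its muscle mean and averaged over 5 genes, the slow type stood at -6.81, -5.45 and -8.41 on abdominal replicates 1, 2 and 3 and at -6.45, -6.63 and -6.60 on the subcutaneous arrays. The fast type stood at -7.18, -7.51 and -8.38 and at -7.57, -7.35 and -8.25. Slow exceeded fast on 5 of 6 adipose arrays, by 0.37 to 2.06, and on abdominal replicate 3 both were equally low (-0.02). The fast values lie near background in fat, and TNNC1 stands at the top of the scale in muscle with members of both types close to it. The sizes of these differences are therefore inexact. Some other muscle fibre genes had the same highest and lowest adipose array as the slow members. These were ACTA1, MB, NEB and MYOT, 4 of the 8 measured fibre markers. DES, ATP2A1, TCAP and CKM by its brightest probe set did not have this order. The other CKM probe set, Bt.3651.1.S1_at, did have it, at 6.24 on abdominal replicate 2 and 4.71 on abdominal replicate 3. Of its adipose values only that on abdominal replicate 2 exceeded the array median. Of the fibre genes by type, 1 of 4 slow (MYOZ2) and 1 of 5 fast (MYLK2) had this order, beside 3.6% of all probe sets. MYLK2 lay under the median on the adipose arrays. PLN, a slow fibre gene, was lowest on abdominal replicate 2 within its depot (9.29, 8.47 and 8.77), and TNNI2 was highest on replicate 3 (4.93, 5.63 and 5.91). These TNNI2 values lay near or under the array median, where an order is inexact. The summed fibre markers were 3129, 3948 and 1922 on abdominal replicates 1, 2 and 3. Of these sums 1486, 1370 and 1029 came from a CKM probe set that was brighter in fat than in muscle, and the other 7 markers summed to 1643, 2579 and 893. Adipocyte markers summed to 43740, 42818 and 44085, and none of the 8 had the order of the slow members, although LEP read 10.74, 9.58 and 10.03. Smooth muscle markers summed to 8774, 10269 and 6891 on these arrays, and macrophage markers to 3763, 7732 and 6433. None of their measured genes had that order over the 6 adipose arrays. Of cardiac markers TNNT2, TNNI3 and NPPA were measured, and all 3 lay under the median on every adipose array. Within abdominal fat the 3'/5' ratio of the actin controls was also highest on replicate 2 and lowest on replicate 3, at 3.95, 5.69 and 2.24. The GAPDH ratio had the same order, at 1.42, 1.62 and 1.26. In subcutaneous fat the actin ratio was 8.17, 5.59 and 3.86, where the slow members ranged over at most 0.64. Subcutaneous replicate 3 had the lowest ratio there and was lowest of its depot for all 7 fast probe sets. Abdominal replicate 3 was lowest of its depot for 6 of 7 fast and 5 of 6 slow probe sets, beside 35.9% of all. The part of either ratio in these patterns was not tested.

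Abdominal and subcutaneous fat were compared directly as the last contrast. None of the 21 member probe sets passed in limma, and 0 had an unadjusted p under 0.05. Over all probe sets 1.31% passed. The smallest adjusted p was 0.503. The difference between the depots was -0.58 ± 1.001 for MYL2 (95% interval -2.82 to 1.66), -0.30 ± 0.72 for TNNT1 (-1.92 to 1.32) and -0.41 ± 0.63 for TNNC1 by Bt.26998.1.A1_s_at (-1.81 to 0.998). In all 3, abdominal replicates 2 and 3 lay farthest apart. MYH7 by Bt.6620.1.S1_at had an interval of -1.26 to 0.73. Among the fast members the intervals were -0.61 to 0.48 for TNNT3 and -0.57 to 0.90 for TNNC2, but -1.63 to 1.10 for MYH1 by Bt.12300.1.S1_at and -0.48 to 1.71 by Bt.12300.2.S1_at. These intervals use a spread pooled over all 3 tissues. Bt.12300.1.S1_at ranged over 2.72 in muscle, 0.61 in abdominal and 0.97 in subcutaneous fat, and MYL2 over 0.04, 5.30 and 0.27. The widths therefore do not measure the spread within the depots and were not compared between the types. The slow values turned with single arrays. MYL2 differed by -1.77 without abdominal replicate 2 and by 0.88 without abdominal replicate 3, TNNT1 by -1.25 and 0.68, TNNC1 by -1.17 and 0.49, and MYH7 by -0.82 and 0.28, so that these data give no direction between the depots. Without both arrays MYL2 differed by -0.06. Of the fast members, MYH1 by Bt.12300.2.S1_at also moved, from 0.62 with all arrays to 1.71 without both. That fit leaves 1 abdominal array, which is assumed to vary like the other groups.

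Among the muscle arrays the ranges of the types overlapped. The range over the 3 arrays was 0.04 for MYL2, 0.06 for TNNT1, 0.09 and 0.10 for the TNNC1 probe sets, 0.47 for MYH7 and 2.59 for MYL3. TNNC1 stood at the top of each array, and MYL2 and TNNT1 also lay among the 21 highest values of each; the part of the upper end of the scale in these small ranges was not tested. The 3 MYH1 probe sets ranged over 0.16, 0.34 and 2.72, MYL1 over 0.32, MYL11 over 0.34, TNNC2 over 0.68 and TNNT3 over 0.76. Of the fast members, 6 of 7 probe sets had muscle replicate 2 as the highest, beside 2 of 6 slow and 38.1% of all probe sets. All 5 measured fast fibre genes outside the members also had replicate 2 as the highest muscle array. These were ATP2A1, the calcium pump of fast fibres, troponin I TNNI2, the Z-disc genes ACTN3 and MYOZ1, and the kinase MYLK2. Their summed intensity was 16865, 24104 and 13912 on replicates 1, 2 and 3. None of the 4 slow fibre genes had that order. The summed adipocyte markers were lowest on the same array, at 10488, 7177 and 9943, although GPD1 was highest there (11.70, 11.97 and 11.73). The part of these markers was not tested.

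**Figure D4:**
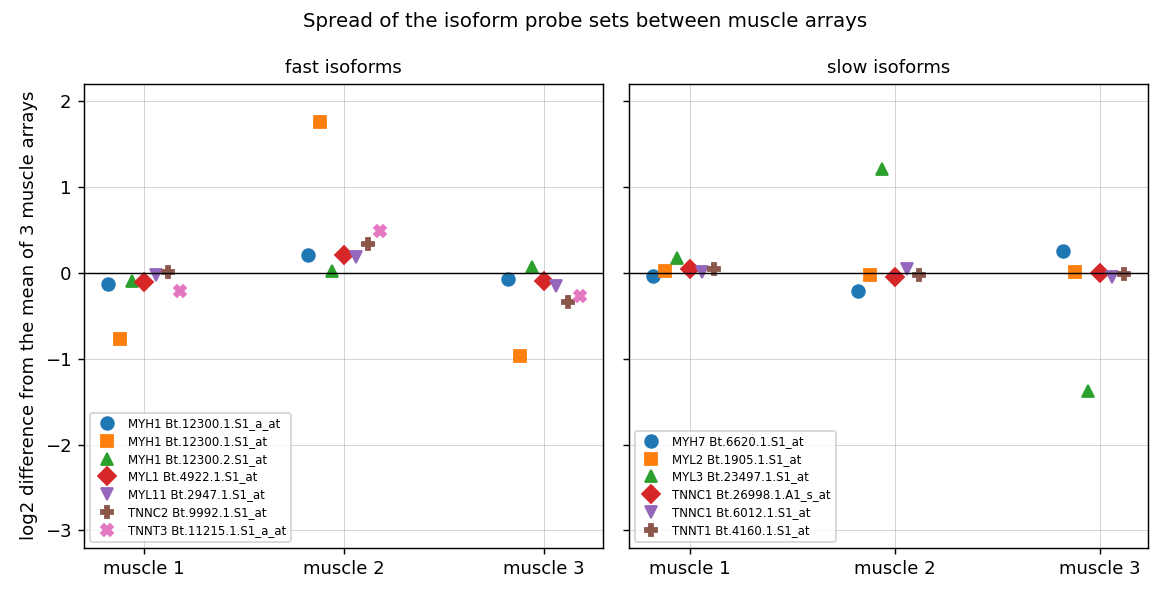
Log2 difference of each muscle array from the mean of the 3 muscle arrays for the fast (left) and slow (right) probe sets high in muscle, with 1 symbol per probe set. Muscle replicate 2 is above 0 for every fast probe set shown, and MYL3 spreads over 2.59 while the other slow probe sets range over 0.04 to 0.47.

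The rest of the thick and thin filament was taken from a list of 40 further genes, of which 22 had a probe set with 1 symbol; the brightest stood for the gene. TNNI1, MYH2, MYH4 and MYH6 were among those without one. Of the 22, 17 were lower in fat, 3 higher and 2 did not pass, with a median of -2.51. By the same rule, 29.5% of 9155 genes were lower and 32% higher, with a median of -0.02. TNNI2, the fast troponin I and partner of TNNT3 and TNNC2, differed by -7.33 ± 0.30 (adjusted p = 9.43e-08), close in size to both. Its muscle values were 12.50, 12.96 and 11.81, again highest on replicate 2. Skeletal actin ACTA1 differed by -5.20 ± 0.61 (adjusted p = 6.42e-05), with muscle near the top of the scale at 13.84 on each array. TPM2, the tropomyosin of slow and fast fibres, differed by -3.61 ± 0.25 (adjusted p = 2.49e-06). A second TPM2 probe set gave a far larger difference, with means of 13.72 in muscle and 6.09 and 6.16 in the depots. The 3 higher genes were all tropomyosins, TPM1 (2.09 ± 0.12), TPM4 (1.4997 ± 0.20) and TPM3 (1.33 ± 0.18), which are also built into the cytoskeleton of cells other than muscle. MYL6, the essential light chain of smooth muscle and non-muscle myosin, did not pass (0.21 ± 0.14, adjusted p = 0.224), nor did MYBPC3 (-0.22 ± 0.13, adjusted p = 0.175). The embryonic heavy chain MYH3 and the perinatal MYH8 were lower in fat (-1.03 and -2.85), but their muscle means of 5.25 and 5.80 were near or under the array median. Smooth muscle markers (5 of 6 measured) had sums of 2437 to 2628 for muscle, 6891 to 10269 for the abdominal and 3799 to 9250 for the subcutaneous depot.

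The genes most like each type were found by the root mean square difference, over the 9 arrays, between their profile and the mean profile of the type, each taken relative to its muscle mean. For the fast type these were muscle creatine kinase CKM by Bt.3651.1.S1_at (0.26), sarcolipin SLN (0.28), PPP1R27 (0.35), STAC3 (0.36) and nebulin NEB (0.39). The brightest CKM probe set, which stands for CKM in the fibre markers, went the other way, with means of 8.58 in muscle and 10.32 and 9.76 in the depots. For the slow type they were myoglobin MB (0.55), carbonic anhydrase CA3 (0.55), myosin binding protein MYBPC1 (0.59), ACTN2 (0.64) and JPH1 (0.67). MB read 7.34, 8.28 and 6.03 and CA3 read 6.78, 8.42 and 5.52 on the abdominal arrays. Of the adipose arrays, all 5 genes nearest the slow type were highest on abdominal replicate 2 and lowest on abdominal replicate 3. The slow profile has this order itself, so the choice of the nearest genes favours it and it is no further result. The 5 nearest the fast type also had it in 4 cases, all but SLN, so that the order did not set the nearest genes of the types apart. PPP1R27, STAC3, ACTN2 and JPH1 lay under the array median on all adipose arrays, where an order is inexact. The nearest slow genes were less close than the nearest fast ones, and all of these distances are descriptions of the same 9 arrays.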

How the data were processed

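The deposited values are linear intensities of probe sets, from 3.06 to 17450.5. Per the submitters' processing notes the authors used RMA, with version and settings not given in the sources used here; since RMA writes log2 values, the step back to a linear scale is also unstated. The log2 of each intensity was taken, with no further scaling and no filter. The 112 control probe sets were left out and 24016 tested. Symbols came from the array annotation, updated through gene identifiers of RefSeq (assembly ARS-UCD2.0); 13292 probe sets had 1 symbol. Tissue means were modelled over the 9 arrays in limma 3.58.1 under R 4.3.3 (lmFit, eBayes; 6 residual and 3.752 prior degrees of freedom), two-sided, with Benjamini-Hochberg adjustment over all 24016 and a threshold of 0.05. SE is the moderated standard error. The procedure was tested on simulated data. Figures used matplotlib 3.10.9. The members, lists, naming rule and alternatives were chosen with earlier results of these data known. From the list of 40 filament genes the text names TNNI2, ACTA1, TPM1, TPM2, TPM3, those against the majority, and by the same rule the 5 nearest genes of each type; TNNI1, also in the rule, had no probe set with 1 symbol. MYL6, MYBPC3, MYH3 and MYH8 were named after their values were seen. Where a gene had several probe sets, the brightest over 9 arrays stood for it in lists, and the brightest in muscle in the type profiles. Alternatives covered the variance prior, dim-probe filters, scaling, array weights, the title number as a block, the arrays fitted, the threshold, a pseudocount of 32 and leaving out each array; leaving out abdominal replicates 2 and 3 together was added after seeing the data.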

Additional observations from a re-analysis of the deposited data

How the results depend on the processing

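The count of 16 member probe sets that differed between adipose tissue and muscle was 14 to 16 with each array left out in turn and 13 to 17 under the other alternatives, and stayed within 1.5 times in each. For abdominal fat against muscle (14) the counts were 13 to 15 and 13 to 17, and for subcutaneous fat (13) they were 13 to 14 and 13 to 15. The depot contrast gave 0 under each of its 21 alternatives. The other filament genes gave 20 with each array left out and 16 to 21 otherwise; the 16 came with dim probe sets filtered, where fewer genes were tested. The direction of no called difference was reversed. Among single member probe sets, 33 of 408 values lost their call against muscle and 4 gained one, all in MYH1 by dim probe sets, MYH7 by Bt.28390.1.S1_at and MYL11 by Bt.21322.1.S1_at. Centring arrays moved all differences from muscle down by 0.12. Depot differences that were not called changed sign in 31 of 429 values.

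With the number that opens each title as a replicate block, 14 member probe sets differed between fat and muscle and 0 between the depots; the calls of MYL11 by Bt.21322.1.S1_at (adjusted p = 0.0559) and MYH1 by Bt.4867.1.A1_at (0.113) were lost. The block uses up abdominal replicate 3, the only sample with its number. Arrays of the same number correlated in their deviations from the tissue means by 0.04 to 0.36 over 7 pairs, and 13 of 14 best matches were with the own number, which is a hint from the data and not part of the design. Signal over background limits the size of differences of members that lie under the array median in fat.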

Other observations

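The endothelial and macrophage lists had higher summed intensities in both depots than in muscle, and the cardiac list lower ones. The 5 endothelial markers summed to 470 to 591 for muscle, 3221 to 3581 for the abdominal and 2559 to 2762 for the subcutaneous depot, and the groups did not overlap. Of these, VWF lay under the array median on all arrays. The 3 cardiac markers summed to 111 to 178 for muscle, 69 to 81 for the abdominal and 72 to 76 for the subcutaneous depot. These sums lie near background: TNNT2 was under the array median on every array, and TNNI3 and NPPA exceeded it on 1 array each. For macrophages, 4 of 5 listed markers were measured, with sums of 603 to 1640 for muscle, 3763 to 7732 for the abdominal and 4020 to 8428 for the subcutaneous depot. Of the 9 endothelial and macrophage genes, PECAM1 alone was highest on abdominal replicate 2 and lowest on abdominal replicate 3 among the adipose arrays, the order found in 5 slow member probe sets.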
